A study of Drosophila melanogaster with 2 samples.

Results

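The vacuolar ATPase subunit genes of Drosophila were examined for binding by CG33017, as the protein-coding genes of the Ensembl BDGP6 annotation whose symbol begins with Vha. There were 33 such genes among 13945 protein-coding genes. Chromatin immunoprecipitation followed by sequencing (ChIP-seq) had been done on whole adult males of a transgenic fly line that stably carries CG33017 with green fluorescent protein at its C-terminus, and per the labels an antibody against GFP was used. The age of the flies is given as unknown, and no source used here gives the construct or promoter of the fusion. The labels number 2 biological replicates of 1 group, so no conditions were compared and no test across groups was possible. The data used were 4 deposited peak lists on the dm6 build, namely 1 per replicate, 1 from the pooled replicates (30000 peaks each) and 1 of 4867 peaks derived from them by the irreproducible discovery rate (IDR).

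A peak's summit is its deposited point of highest signal. A gene is called bound in a list when a summit lies within 500 bp of any of its annotated transcription start sites (TSSs). Peaks are ranked within their own list by signal, the authors' own value for each peak, with rank 1 the highest. A gene's rank in a list is that of its strongest promoter summit there, which can lie at another position in another list. Read depth cannot be seen in peak lists, and flies without the tag were not analysed here. In whole flies a site bound in few cells and a site bound weakly in many cannot be told apart.

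The vacuolar ATPase is a rotary proton pump. Its V1 sector hydrolyses ATP in the cytosol and turns a shaft, and its V0 sector, in the membrane, carries protons across through a ring of proteolipids. The pump acidifies lysosomes, endosomes and secretory vesicles in all cells, and in insect epithelia such as the Malpighian tubules and midgut it also sits in the plasma membrane and drives ion transport. The fly has several genes for many subunits, and commonly 1 of them is used in most tissues while the paralogues are used in few. By general knowledge of the family, 15 of the 33 genes were classed as widely used and 18 as tissue-restricted, with 5 of the 18 uncertain in class.

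The bound stretches of 4 members are shown because they span the contrasts described below. They come from both widely used genes of catalytic subunit A, from the widely used gene of subunit B and from a tissue-restricted gene of membrane subunit a. Each is read 5′ to 3′ on the strand of the gene from the NCBI Release 6 sequence (dm6), stops short of annotated exons, and has in capitals the 11 bases centred on the IDR summit. The Vha68-1 stretch is chr2L:13004202-13004305 (minus strand), the Vha68-2 stretch chr2L:12974131-12974321 (plus strand), the Vha55 stretch chr3R:12627830-12627953 (minus strand) and the Vha100-5 stretch chr2L:11738830-11738947 (plus strand). Their GC content differed widely, at 27.9% in the Vha68-1 stretch, 54.5% in that of Vha68-2, 47.6% in that of Vha55 and 44.9% in that of Vha100-5.
Vha68-1: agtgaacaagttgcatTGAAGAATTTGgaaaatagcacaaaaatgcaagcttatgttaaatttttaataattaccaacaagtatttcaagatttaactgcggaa
Vha68-2: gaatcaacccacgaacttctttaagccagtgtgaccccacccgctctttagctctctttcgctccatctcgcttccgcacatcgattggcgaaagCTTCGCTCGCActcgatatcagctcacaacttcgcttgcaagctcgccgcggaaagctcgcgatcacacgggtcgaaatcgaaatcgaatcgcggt
Vha55: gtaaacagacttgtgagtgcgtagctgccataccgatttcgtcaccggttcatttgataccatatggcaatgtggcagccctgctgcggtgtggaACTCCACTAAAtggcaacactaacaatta
Vha100-5: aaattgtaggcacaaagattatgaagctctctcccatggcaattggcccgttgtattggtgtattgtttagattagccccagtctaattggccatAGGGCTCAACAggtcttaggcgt

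CG33017 summits lay at the promoters of widely used subunit genes more often than at those of their tissue-restricted paralogues, in every list. In the IDR list 12 of the 33 members were bound (36.4%), against 23.8% of all protein-coding genes. Of the widely used genes 9 of 15 were bound (60%), and of the tissue-restricted genes 3 of 18 (16.7%). Without the 5 genes of uncertain class, 1 of 13 tissue-restricted genes was bound, and over subunits with more than 1 gene, 5 of 9 widely used genes were. In the pooled list 23 members were bound (69.7%), against 61.3% of all genes, and these held 15 of 15 widely used genes and 8 of 18 tissue-restricted genes (44.4%). The full list of replicate 1 had a summit at 24 members, against 61% of all genes, and that of replicate 2 at the same number, against 59.2% of all genes. In each replicate these were all 15 widely used genes and 9 of the 18 tissue-restricted ones. All 4 lists held a summit at 12 members, against 23.7% of all genes (36.4% of members), and the pooled list with both replicates held one at 23 members, against 51.9% of all genes. The lists share their reads and are not independent of each other.

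At the other end, 9 members had no promoter summit in any list (27.3%), against 31.5% of all genes, and all 9 were tissue-restricted. They were Vha36-2 and Vha36-3 (rotor shaft subunit D), Vha14-2 (rotor subunit F), Vha100-3 (membrane subunit a), Vha16-2, Vha16-3 and Vha16-4 (ring subunit c), VhaPPA1-2 (ring subunit c″) and VhaM9.7-d (small membrane subunit e). Each of these subunits also had a widely used gene with a summit in the pooled list. No chance test was made over these counts, since the genes were sorted into classes with earlier results of these data known.

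**Figure D1:**
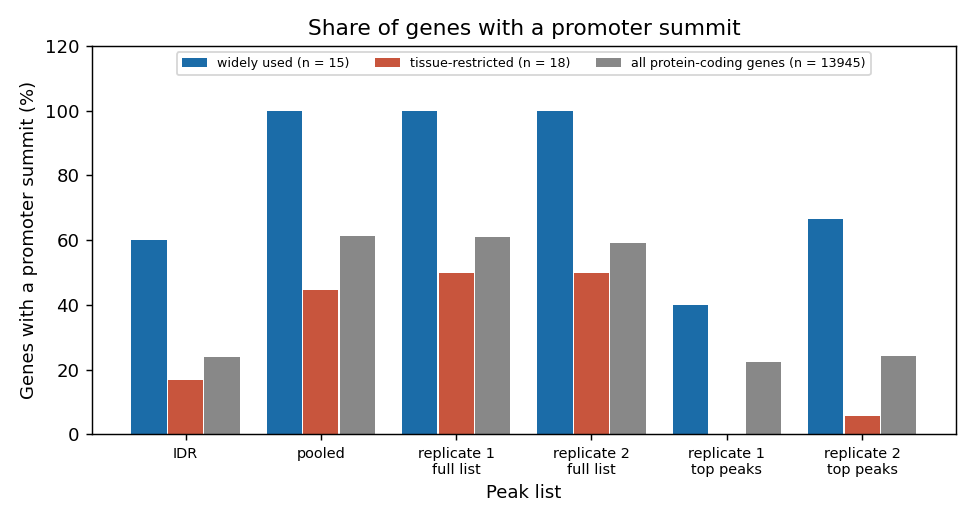
Share of genes (%, vertical axis) with a summit within 500 bp of a TSS in each peak list, for 15 widely used subunit genes, 18 tissue-restricted subunit genes and 13945 protein-coding genes. The top peaks are the 4867 highest-signal peaks of each replicate; in every list the widely used genes stand above all genes and the tissue-restricted genes below, with 60%, 16.7% and 23.8% in the IDR list.

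The replicates differed in how many members stood among their strongest peaks. When each replicate's list was cut to its 4867 highest-signal peaks, as many as the IDR list holds, replicate 1 had a summit at 6 members, against 22.5% of all genes. Replicate 2 had one at 11 members, against 24.1% of all genes. The share of members bound was thus 25.8% ± 10.7 over the replicates, against 23.3% ± 1.12 of all genes (SD, n = 2 each), so members as a whole did not stand apart from all genes by more than the replicate spread. Widely used genes were bound at 53.3% ± 18.9 and tissue-restricted genes at 2.78% ± 3.93 (SD, n = 2 each). The widely used shares, 40% in replicate 1 and 66.7% in replicate 2, and the tissue-restricted shares, 0% and 5.56%, did not overlap.

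Subunits of V1 were bound more often than those of V0. In the IDR list 7 of 13 V1 genes (53.8%) and 5 of 18 V0 genes (27.8%) had a promoter summit, against 23.8% of all genes, so the V0 share was near that of all genes. Neither of the 2 accessory genes had one. The top lists of the replicates gave 46.2% ± 10.9 for V1 and 13.9% ± 11.8 for V0, against 23.3% ± 1.12 for all genes (SD, n = 2 each). Class and sector overlap, since 9 of the 13 V1 genes but 5 of the 18 V0 genes are widely used. Among widely used genes alone, 7 of 9 V1 genes and 2 of 5 V0 genes were bound in the IDR list. Among tissue-restricted genes, 0 of 4 V1 genes and 3 of 13 V0 genes were bound.

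The catalytic sites of V1 lie at the interface of subunits A and B, and all 3 widely used genes for these were bound in the IDR list. Vha68-1 (FBgn0265262), a gene of catalytic subunit A, had its summit in intergenic sequence, 177 bp upstream of the TSS, in the peak at 2L 13004202 to 13004305. It ranked 1306 in the pooled list (signal 241), 1216 in replicate 1 and 1606 in replicate 2. Its paralogue Vha68-2 (FBgn0263598) had its summit 91 bp upstream of a TSS, also in intergenic sequence (2L 12974029 to 12974432). There the ranks were 4074 in the pooled list (signal 119), 6107 in replicate 1 and 2466 in replicate 2, so it stood lower than Vha68-1 in each list. The third gene of subunit A, the tissue-restricted Vha68-3, starts 178 bp beyond the end of Vha68-2 on the same strand. It had no IDR summit, and its pooled summit, 214 bp into the gene in coding sequence, ranked 11442 (signal 54.3), with ranks of 13292 in replicate 1 and 11148 in replicate 2. The 3 subunit A genes thus kept the order Vha68-1, Vha68-2, Vha68-3 in the pooled list and in both replicates. The Vha68-1 summit is shared with mTor, whose TSS lay 196 bp from it in the IDR list and nearer than that of Vha68-1 in both replicates. The order is therefore one of assigned summits. Vha55 (FBgn0005671), the gene of nucleotide-binding subunit B, had a summit 24 bp upstream of its TSS (3R 12627651 to 12628054). It ranked 1635 in the pooled list (signal 213), 2375 in replicate 1 and 1467 in replicate 2.

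Of the other V1 genes, the rotor shaft, the link to V0, a stalk subunit and the regulatory subunit were bound in the IDR list. Vha36-1 (FBgn0022097), for shaft subunit D, had a summit 45 bp upstream of its TSS in the peak at 2R 15541281 to 15541461. Ranks were 1013 in the pooled list (signal 282), 1204 in replicate 1 and 931 in replicate 2. These were the closest to the top among V1 genes in each list, but the IDR summit lay nearer to a TSS of CG8187, at 27 bp. Vha44 (FBgn0287825), for subunit C, which joins V1 to V0, had a summit 81 bp upstream (2R 16336623 to 16336809). It ranked 2647 in the pooled list (signal 157), 9568 in replicate 1 and 1107 in replicate 2, an 8.64-fold difference in rank that was the widest among members. The strongest Vha44 summits of the replicates lay 108 bp apart. The IDR summit of Vha44 lay nearer to a TSS of Hmgs, at 42 bp. Vha13 (FBgn0283536), for stalk subunit G, had a summit 45 bp downstream of its TSS in its 5′ UTR (3R 19644311 to 19644418). Its ranks were alike at 2429 in the pooled list (signal 166), 2577 in replicate 1 and 2597 in replicate 2. VhaSFD (FBgn0027779), for regulatory subunit H, had a summit 87 bp downstream, also in its 5′ UTR (2L 16727537 to 16727940). It ranked 2909 in the pooled list (signal 148), 3341 in replicate 1 and 2414 in replicate 2.

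The remaining widely used V1 genes were below the IDR list, whose lowest signal was 105. Vha26, for stalk subunit E, had a pooled summit 118 bp upstream of its TSS with rank 5619 (signal 94.4), and ranked 8563 in replicate 1 and 5105 in replicate 2. Vha14-1, for rotor subunit F, had one 41 bp downstream with rank 8507 (signal 69.1), and ranked 8364 in replicate 1 and 13000 in replicate 2. The IDR summit nearest to Vha14-1 was 912 bp downstream of its TSS and had rank 533. For the other 5 widely used genes without an IDR promoter summit, the nearest IDR summit lay over 2000 bp away.

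In V0, the subunit a genes held both the strongest promoter summit assigned to a member and a gene with no summit at all. Subunit a is the static membrane subunit that forms the proton half-channels. The summit assigned to Vha100-2 (FBgn0028670), the widely used gene, lay 291 bp upstream of an internal TSS (3R 18397068 to 18397391). It ranked 471 in the pooled list (signal 445), 339 in replicate 1 and 717 in replicate 2. This summit lay in the 5′ UTR of Vti1b, a SNARE gene on the other strand, and nearer to the TSS of Vti1b. At the outer TSS of Vha100-2, a separate pooled summit 6 bp upstream had rank 5920 (signal 90.6), below the IDR list. The neuronal subunit gene Vha100-1 (FBgn0028671) had a summit 4 bp downstream of its TSS (3R 29130995 to 29131398), with ranks of 4648 in the pooled list (signal 108), 5198 in replicate 1 and 6155 in replicate 2. Vha100-5 (FBgn0032373) had one 18 bp upstream (2L 11738728 to 11739131), with ranks of 4410 in the pooled list (signal 113), 6190 in replicate 1 and 6505 in replicate 2. Both therefore passed into the IDR list near its lower end, while neither stood among the 4867 strongest peaks of either replicate. Vha100-4, whose gene lies 517 bp from the end of Vha100-2, had only a weak pooled summit 382 bp upstream, with rank 15269 (signal 41.9), 27102 in replicate 1 and 8869 in replicate 2.

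In the proteolipid ring the widely used genes stood above their paralogues in the pooled list and both replicates, while the order for the coupling subunit turned between replicates. Vha16-1 (FBgn0262736), the widely used gene of ring subunit c, had 2 IDR summits, 621 bp apart, each just upstream of a different TSS. The stronger of them, 27 bp upstream of the outer TSS (2R 6632915 to 6633318), ranked 2480 in the pooled list (signal 164), 5850 in replicate 1 and 1286 in replicate 2. The weaker, at pooled rank 4696, lay in an intron 112 bp upstream of the internal TSS. Of the 4 other subunit c genes, Vha16-5 alone had any promoter summit, 354 bp upstream with pooled rank 6009 (signal 89.8), 7291 in replicate 1 and 6433 in replicate 2, and it lay in the 5′ UTR of the neighbouring CG12299. For ring subunit c″, VhaPPA1-1 had a pooled summit 20 bp upstream with rank 8765 (signal 67.6), 8517 in replicate 1 and 6168 in replicate 2, while VhaPPA1-2, 2052 bp away on the same strand, had none. For coupling subunit d, VhaAC39-1 had a pooled summit 450 bp downstream of its TSS in its intron, with rank 12064 (signal 52.0), 13497 in replicate 1 and 11092 in replicate 2. Its paralogue VhaAC39-2 was listed in the replicates only, with summits 530 bp apart at rank 7684 in replicate 1, above VhaAC39-1, and 20987 in replicate 2, below it.

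Among the genes of small membrane subunit e, the tissue-restricted VhaM9.7-c (FBgn0028664) was the bound one in the IDR list, with its summit 5 bp downstream of the TSS in its 5′ UTR (3L 4186658 to 4187061). It ranked 4378 in the pooled list (signal 113), 6067 in replicate 1 and 3167 in replicate 2. The widely used VhaM9.7-b had a pooled summit 257 bp upstream with rank 6019 (signal 89.7), 7515 in replicate 1 and 4546 in replicate 2. VhaM9.7-a had one 181 bp upstream with rank 11632 (signal 53.6), 10341 in replicate 1 and 16560 in replicate 2. Subunit e was thus the subunit in which a tissue-restricted gene stood above the widely used one in the pooled list, and the class of VhaM9.7-c is uncertain. The accessory subunit gene VhaAC45 had a pooled summit 19 bp downstream with rank 5975 (signal 90.1), 6188 in replicate 1 and 7249 in replicate 2. VhaAC45RP, for an Ac45-related protein, had one 83 bp upstream with rank 17965 (signal 36.2), 18355 in replicate 1 and 14280 in replicate 2.

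**Figure D2:**
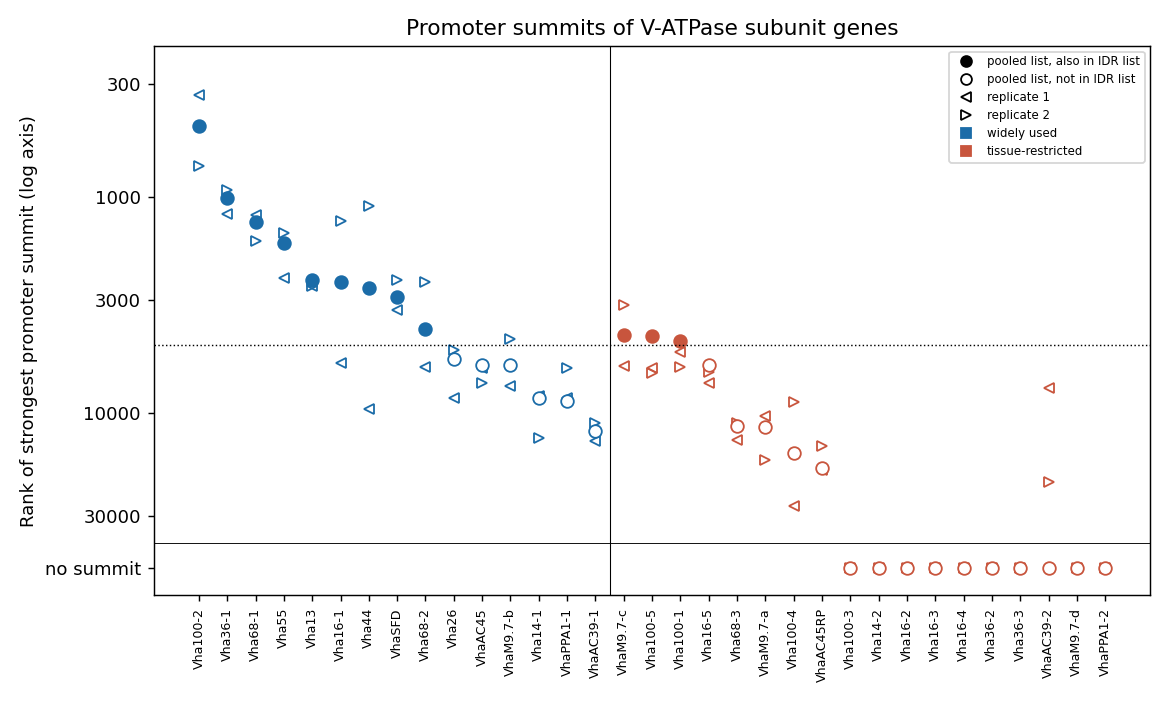
Rank of the strongest promoter summit (log axis, rank 1 at the top) of each of the 33 subunit genes in the pooled list (circles, filled where also in the IDR list) and in replicates 1 and 2 (triangles). The dotted line marks the length of the IDR list, 4867 peaks; widely used genes run from 471 to 12064 in the pooled list, while the 3 tissue-restricted genes above the line sit at 4378 to 4648 and 10 tissue-restricted genes have no pooled summit.

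The summits assigned to Vha100-2 and Vha36-1 ranked well above the median bound gene. The median of the members bound in a list lay on either side of it, depending on the list. The 12 members in the IDR list had a median rank of 2563.5, against 2088.5 for the 3314 bound protein-coding genes, and a median signal of 161 against 182. Within the IDR list the widely used members had a median rank of 2429 and the tissue-restricted members of 4410. In the pooled list, the median rank was 2909 for the 15 widely used members and 8725.5 for the 8 bound tissue-restricted members, against 6950 for all bound genes. Between replicates, the ranks of the 12 IDR members differed by a median of 1.501-fold, against 1.43-fold for the 3300 genes with a promoter summit in the IDR list and both replicates. More than a 2-fold difference was found for 4 of the 12 members (33.3%), namely Vha44, Vha16-1, Vha68-2 and Vha100-2, against 22.1% of those genes. The first 3 ranked higher in replicate 2 and Vha100-2 in replicate 1. These 3 were the widely used IDR members absent from the 4867 strongest peaks of replicate 1, which held the other 6. Among the 4867 strongest peaks, the 6 members bound in replicate 1 had a median rank of 1795.5, against 2100 for all bound genes. The 11 members bound in replicate 2 had one of 1606, against 2072. The order of members and all genes was thus the reverse of that in the IDR list. These medians do not follow the same 12 members across lists, since a cut list leaves out members with weaker summits.

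In the IDR list the median summit offset was less far upstream for members than for bound genes in general. Offsets are signed, and unsigned distances were not compared. The median offset of the 12 was -25.5 bp (negative is upstream), against -119 bp for all bound genes, and 8 of 12 lay upstream (66.7%), against 80.7%. Among the strongest peaks of each replicate the median offset was -106 bp for 6 members in replicate 1, against -117 bp for all bound genes, and -60 bp for 11 members in replicate 2, against -113 bp. The IDR summits of the same 6 members had a median offset of -34.5 bp, and replicate 1 placed the summit elsewhere at Vha55 (-181 bp, against -24 bp in the IDR list), Vha68-1 and VhaSFD. Of the 12 best summits, 6 lay in a 5′ UTR and 6 in intergenic sequence. At Vha100-2 the 5′ UTR was that of the neighbouring Vti1b, and at Vha44 that of the neighbouring Hmgs. For 6 of the 12 members the summit also lay within 500 bp of a TSS of another protein-coding gene, so the summit cannot be assigned to the member alone. In 3 of these the other gene was nearer. These were Vti1b at 224 bp beside Vha100-2, CG8187 at 27 bp beside Vha36-1, and Hmgs, the HMG-CoA synthase gene, at 42 bp beside Vha44. The member was nearer to the IDR summit in the other 3, where the neighbours were mTor, the nutrient-sensing kinase gene, at 196 bp beside Vha68-1, Snx3, a sorting nexin gene, at 178 bp beside Vha55, and dgt6, an augmin subunit gene, at 225 bp beside Vha100-1. The TSSs of mTor and Snx3 lay 373 bp and 202 bp upstream of those of Vha68-1 and Vha55. In replicate 1 the summits at Vha68-1 (-232 bp) and Vha55 (-181 bp) were nearer to these neighbours. The Vha68-1 summit of replicate 2 (-191 bp) was also nearer to mTor. When each summit was given to the gene of its nearest TSS only, 9 members were bound, of which 6 were widely used and 3 tissue-restricted, against 18.2% of all genes.

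**Figure D3:**
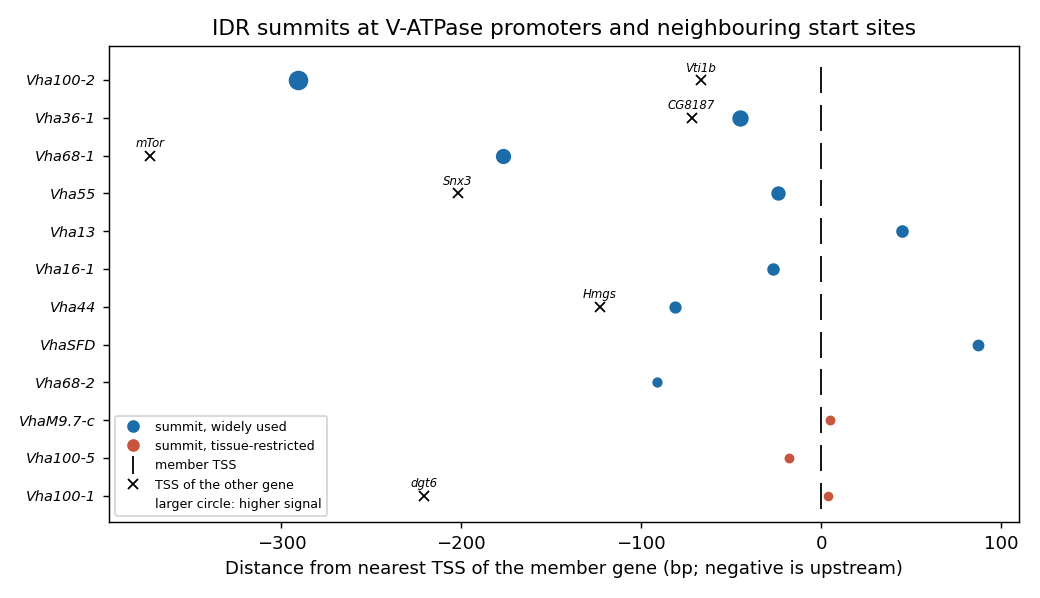
Position of the best IDR summit (circles, larger where the signal is higher) of 12 subunit genes relative to the nearest TSS of that gene (bp, horizontal axis; negative is upstream), with the TSS of another protein-coding gene within 500 bp of the summit as a cross. Summits run from 291 bp upstream (Vha100-2) to 87 bp downstream (VhaSFD), and at Vha100-2, Vha36-1 and Vha44 the cross lies nearer to the summit than the member's own TSS.

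Promoter layout differed between the classes. A TSS of another gene on the opposite strand lay within 500 bp upstream of 13 of 33 members (39.4%), against 29.6% of all protein-coding genes. This held for 9 of 15 widely used genes (60%) and 4 of 18 tissue-restricted genes (22.2%). Over all protein-coding genes, 41.4% of those with such a neighbour and 16.3% of those without one were bound in the IDR list. Among widely used genes 5 of 9 with a neighbour and 4 of 6 without one were bound, and among tissue-restricted genes 1 of 4 and 2 of 14. The part of promoter layout in the class contrast was not tested beyond these counts.

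The GC content at member summits averaged above that of CG33017 promoter summits in general. Over 101 bp centred on the summit, the 12 members averaged 45.5% ± 9.51 GC, against 36.2% ± 11.4 over all 2819 promoter summits of the IDR list (SD over summits), a difference of less than 1 SD. The lowest member was Vha68-1 at 26.7%, the median 45.0% and the highest Vha44 at 63.4%. Around the TSS itself, widely used genes averaged 46.4% ± 4.64 and tissue-restricted genes 40.1% ± 8.71, against 43.3% ± 7.86 for all protein-coding genes (SD over genes).

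The CLEAR core and the M-box were near the TSSs of a larger share of widely used members than of all genes. Neither was near those of a tissue-restricted member, which is close to the low share over all genes. Mitf, the fly counterpart of mammalian MITF and TFEB, is known to control V-ATPase genes through such E-box elements. Both strands were searched within 100 bp of any TSS for the CLEAR core TCACGTGA, which contains the E-box CACGTG, and for the M-box TCATGTG. The CLEAR core was at 3 of 15 widely used genes (20%), namely Vha16-1, Vha44 and Vha68-2, and at 0 of 18 tissue-restricted genes, against 0.129% of all protein-coding genes. The M-box was at 5 of 15 widely used genes (33.3%), namely Vha14-1, Vha55, VhaAC45, VhaM9.7-b and VhaPPA1-1, and at 0 of 18 tissue-restricted genes, against 1.84% of all. The shorter E-box was at 4 of 15 widely used genes (26.7%) and at 1 of 18 tissue-restricted genes, VhaM9.7-d, against 3.69% of all. The DRE core, which is not a Mitf element, was also at 3 of 15 widely used genes and 0 of 18 tissue-restricted genes, with 16.6% of all genes. Likewise the motif 7 core CATCNCTA was at 1 of 15 widely used genes, Vha68-1, and 0 of 18 tissue-restricted genes, with 5.94% of all genes. Taken as either motif, a grouping chosen after the values were seen, 8 of 15 widely used genes (53.3%), 0 of 18 tissue-restricted genes and 0 of 25 other acidification and lysosome genes had a match, against 1.96% of all genes. In the IDR list, 4 of the 8 widely used genes with a match were bound, and 5 of the 7 without one. A match is a run of letters and not a measured site.

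Sites of 30 bases are shown for 4 of these widely used genes to set the motif beside the peak, on the strand of the gene, 5′ to 3′, with the motif in capitals. The Vha55 site, chr3R:12627767-12627796 (minus strand), holds an M-box 48 bp downstream of the TSS and 72 bp from the pooled summit, followed by an E-box. The Vha68-2 site, chr2L:12975292-12975321 (plus strand), holds a CLEAR core 96 bp upstream of an internal TSS and 1075 bp from the best pooled summit. A weaker pooled peak of Vha68-2, at 2L 12974967 to 12975370 (rank 7091), spans this CLEAR core. The VhaM9.7-b site, chr3L:21539873-21539902 (plus strand), holds an M-box 25 bp downstream of the TSS and 282 bp from the best pooled summit. A weaker pooled peak of VhaM9.7-b, at 3L 21539609 to 21540012 (rank 8413), spans this M-box. The VhaPPA1-1 site, chr3R:14904010-14904039 (minus strand), holds an M-box 37 bp downstream of the TSS and 57 bp from the summit. Vha55 and Vha68-2 are in the IDR list, and VhaM9.7-b and VhaPPA1-1 are in the pooled list below it.
Vha55: acgcgtgacgggTCATGTGacggcacgtga
Vha68-2: tcaaagctctgTCACGTGAaacgaaagctc
VhaM9.7-b: ggacatgtccgTCATGTGatattcgttgct
VhaPPA1-1: agaaaatgtacgTCATGTGattgtggattc

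At the summits themselves no consensus was found at more than 3 of the 12 members. In windows of 100 bp each side of the 12 best IDR summits, the E-box CACGTG was found at Vha44 and Vha55, against 2.63% of 2819 promoter summits and 2.80% of TSS windows of the same length. At Vha44 it was part of the CLEAR core (1 of 12 members, against 0.177% of promoter summits), and the M-box was at Vha55 alone (against 1.56%). The DRE core ATCGATA, known as the element of the factor DREF, was found at Vha36-1 alone, 3 bp from the summit, against 10.7% of promoter summits. The core of motif 1, GGTCACAC, was found at Vha68-2 and at Vha100-1, where it lay 2 bp from the summit, against 4.68%. The TATA sequence TATAAA was found at 3 members (25%), against 36.5% of promoter summits, the E-box CAGCTG at 3 members (25%), against 12.0%, and the GAGA repeat GAGAGAG at Vha100-5 alone, against 6.49%. The motif 7 cores CATCNCTA and CAGCNCTA were found at 0 of the 12, against 5.53% and 2.63%. At least 1 of the searched sequences was present at 9 of 12 members (75%), against 62.5% of promoter summits and 55.5% of TSS windows.

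**Figure D4:**
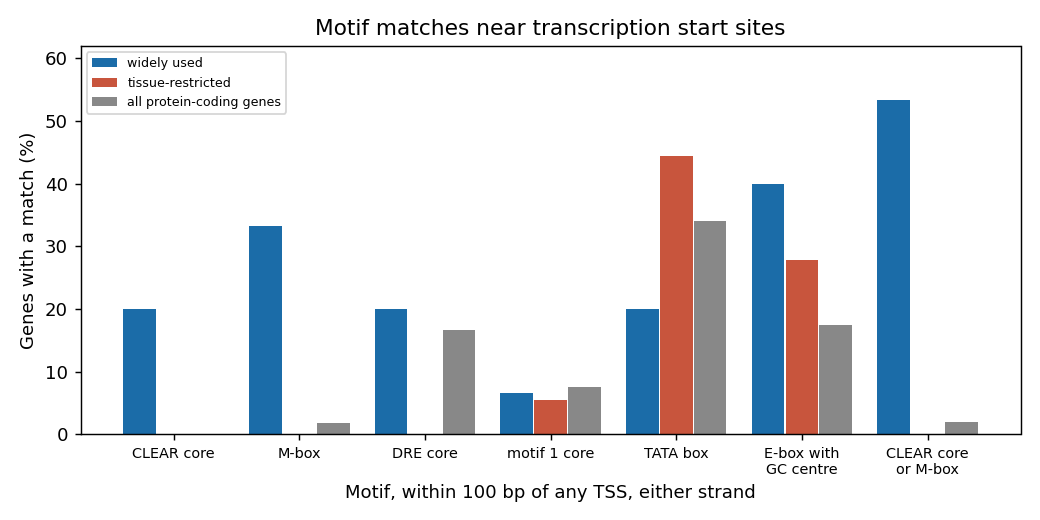
Share of genes (%, vertical axis) with a match to each consensus on either strand within 100 bp of any TSS, for 15 widely used subunit genes, 18 tissue-restricted subunit genes and 13945 protein-coding genes. The CLEAR core or M-box was at 53.3% of widely used genes, 0% of tissue-restricted genes and 1.96% of all genes. The sequence TATAAA, labelled TATA box, was at 20%, 44.4% and 34.1%, with no limit on its position in the window.

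Other genes of acidification and the lysosome were taken as a list of 25, all found in the annotation, 1 of them under an older symbol. Their share bound in the IDR list, 7 of 25 (28%), was near the 23.8% of all genes, while in the pooled list 23 of 25 (92%) had a promoter summit, against 61.3% of all genes. The 7 were mtd, for a TLDc domain protein, at rank 819 (signal 318), CtsL1, for a lysosomal cysteine protease, at rank 2014, spin, for a lysosomal lipid transporter, at rank 2199, Nhe3, for a sodium/proton exchanger, at rank 2629, CtsB, for a cysteine protease, at rank 3277, ClC-a, for a chloride channel, at rank 3949, and cathD, for an aspartic protease, at rank 4281 (signal 114.8). Mitf itself had a pooled summit at rank 6388 and none in the IDR list. The genes of rabconnectin, which binds V1 and helps the pump assemble, were also below the IDR list, at pooled ranks of 5913 for Rbcn-3A and 19083 for Rbcn-3B. RagA-B, a Rag GTPase gene, and Trpml, a lysosomal channel gene, had no promoter summit in any list.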

How the data were processed

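Peak lists on dm6 were used as deposited. Per the text deposited with the samples, the authors called peaks on each replicate and on the pooled replicates against 1 control alignment and derived the final list by IDR. No source used here gives the aligner, the peak caller, their versions or the threshold of the IDR. The deposited signal is the authors' own value per peak. It was used to rank peaks within a list and to compare signals within the pooled and IDR lists. The deposited −log10 q-value was constant in the IDR list and was not used. The number of reads is unknown, so no interval or floor is given, and precision was taken from the replicates (n = 2), as mean ± SD over the 4867 highest-signal peaks of each. The labels call them biological replicates.

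Genes and TSSs came from Ensembl release 115 on 6 arms. Sequences were read from the NCBI Release 6 genome, where no arm was shorter than the peaks require. No filter on low values was applied to genes. The subunit roles, the 2 classes, the 25 other genes and the consensus sequences were chosen with earlier results of these data known. Every member, every listed pathway gene with an IDR summit and every protein-coding gene sharing a bound member's summit is named. Values of Mitf, Rbcn-3A, Rbcn-3B, RagA-B, Trpml and CG12299 were chosen after they were seen. An accessory subunit formerly named VhaM8.9 has another symbol in this annotation and is not a member. Python 3.11.15, numpy 2.4.6, pandas 2.3.3 and matplotlib 3.10.9 were used, and the assignment was tested on simulated data.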

Additional observations from a re-analysis of the deposited data

How the results depend on the processing

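Of 64 alternative values, 47 stayed within the limit set for each (1.5-fold of a count, or the replicate spread). When only the IDR peaks of higher signal were kept, the bound counts were 5 members, 5 widely used, 0 tissue-restricted, 4 V1, 1 V0 and 3 other pathway genes, and the median rank of bound members was 1306, against 13.6% of all genes bound, by construction of a shorter list. With each replicate left out in turn, and the strongest peaks of the other used, the ranges were 6 to 11 members, 6 to 10 widely used, 0 to 1 tissue-restricted, 5 to 7 V1, 1 to 4 V0 and 6 to 8 pathway genes, with a median rank of 1606 to 1795.5 and a median offset of -106 to -60 bp. The lower counts came without replicate 2, except for pathway genes, and the cause was not tested. Leaving out genes of uncertain class gave 1 of 13 tissue-restricted genes, since the bound genes Vha100-1 and VhaM9.7-c are among those left out. Taking only subunits with more than 1 gene gave 5 of 9 widely used genes, from a smaller list. Windows of 250 bp and 1000 bp gave 11 and 13 bound members, against 19.8% and 27.1% of all genes. When the peak interval had to cover a TSS, 10 members were bound, against 15.6% of all genes. Of these, 7 were among the 15 widely used genes and 3 among the 18 tissue-restricted genes, whose share was then not below that of all genes. No paired analysis was possible because there was 1 group. The number of peaks, not of reads, is known, so detection limits cannot be given.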

Other observations

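Outside the promoter windows, IDR summits also lay in introns of 2 members, both of V0. Vha16-1, for ring subunit c, held intronic IDR peaks at 2R 6628243 to 6628646 (rank 1253, signal 247) and at 2R 6630540 to 6630943 (rank 4773, signal 106). The strongest Vha16-1 peak thus lay inside the gene and not at its promoter. Vha100-2, for membrane subunit a, held an intronic IDR peak at 3R 18393438 to 18393841 (rank 3051, signal 144).

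Subunits B, C, E, G and H have 1 gene each, and of these Vha55, Vha44, Vha13 and VhaSFD were bound in the IDR list while Vha26 had a promoter summit in the pooled list and both replicate lists only. For the 15 tissue-restricted genes without an IDR promoter summit, the nearest IDR summit lay 1767 to 229521 bp from a TSS, with a median of 7184 bp. For the 6 widely used genes without one it lay 912 to 23656 bp away, with a median of 10485.5 bp.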
